A study of Mus musculus and Homo sapiens with 30 samples.

Results

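The genes described here act in making and activating polyunsaturated and other fatty acids, loading them into membrane phospholipids, or taking them out again. The group holds 10 mouse genes, chosen by name from 56980 gene IDs: Acsl4, Acsl3, Lpcat3, Mboat1, Mboat2, Agpat3, Pla2g6, Fads1, Fads2 and Elovl5. Of 61552 human IDs, 6 given with the rule were taken as their human counterparts, ACSL4, ACSL3, LPCAT3, FADS1, FADS2 and ELOVL5. No cut on a measured value was used to choose them, but earlier results of these data were known at the time. After the filter on low counts, 9 of the 10 mouse genes were tested in E0771, all 10 in NMuMG, and 4 of the 6 human genes in SkBr3.

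Before a free fatty acid can enter a phospholipid, an acyl-CoA synthetase joins it to coenzyme A. An acyltransferase then moves the acyl chain onto a lysophospholipid, and a phospholipase A2 can cut it off again, a turnover known as the Lands cycle. The desaturases FADS1 and FADS2 and the elongase ELOVL5 make long polyunsaturated chains from the shorter ones in the diet. Phospholipids that carry such chains are the membrane lipids most open to peroxidation, and ferroptosis is the form of cell death in which they are oxidised. Breast epithelium lies within fat tissue, whose adipocytes secrete fatty acids and their oxidised products, the oxylipins.

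The data are 30 poly(A) RNA libraries. SkBr3, a line from human breast cancer, gave 4 libraries in each medium. E0771, from a mouse mammary tumour, and NMuMG, from normal mouse mammary gland, gave 3 each; the labels put breast cancer as the cell type of all. After 36 h of growth, cells spent 16 h in plain growth medium (control) or in a mixture with 50% secretome of inguinal adipocytes, either lean or obese. The growth medium was DMEM with 10% FBS, and that of NMuMG also held 10 mcg/ml insulin and 4.5 g/L glucose, so a difference between the mouse lines cannot be told apart from one of their media. The series' title asks about an oxylipin of lean breast adipocytes and ferroptosis. Neither the species nor the number of fat donors is given in the sources used here, and the control medium held 0% secretome. Each line is 1 line, and nothing in the labels says that its replicates were separate cultures, so p-values measure the spread between these libraries.

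Total counts per library lay between 22929035 and 31094119 in E0771, between 23966897 and 29686456 in NMuMG and between 18479433 and 29195499 in SkBr3. The first principal component held 57.4% of the variance in E0771, 44.5% in NMuMG and 46.4% in SkBr3, and set the lean libraries apart from the others in each line. NMuMG had reads of the 5 epithelial markers looked at, with Krt8 at 3193 to 3898 CPM (counts scaled to the library total with TMM factors) and Cdh1 at 466.8 to 556.3. Epcam was low there, at 1.59 to 2.64 CPM. The epithelial markers of E0771, apart from Krt8, went against an epithelial identity. Krt8 stood at 228.7 to 259.1 CPM, but Cdh1 and Epcam were at or below 0.290 and 0.131 CPM. Krt19 had no read in any of 9 libraries. Of the mesenchymal markers, Vim and Zeb1 were present in both mouse lines. Vim was at 1876 to 3112 CPM in E0771 and 1730 to 1951 in NMuMG. Zeb1 was at 72.9 to 85.3 CPM in E0771 and 51.3 to 57.1 in NMuMG. Fn1 had no read in any E0771 library, against 879.8 to 1577 CPM in NMuMG. Markers of adipocytes were near 0 in both mouse lines: all 7 stayed under 2.5 CPM in every library, and Lep had no read. Their summed level was 0.750 to 1.16 CPM in lean against 0.866 to 1.61 in obese E0771 libraries, and 2.02 to 2.19 against 0.372 to 1.10 in NMuMG, where Cidec made up most of it. Leukocyte and endothelial markers summed to at most 5.76 and 5.62 CPM in any mouse library. The summed level of the 3 mesenchymal markers was lower with lean secretome, at 1955 to 2188 CPM against 2889 to 3005 with obese in E0771, and at 2683 to 2845 against 3294 to 3460 in NMuMG. In E0771 the fall was mostly that of Vim, at a mean of 2016 CPM against 2876. In NMuMG it was mostly that of Fn1, at 952.1 against 1380, with Vim at 1770 against 1919. The summed level of the 5 epithelial markers was higher with lean secretome in NMuMG, at 7800 to 8020 CPM against 6730 to 7109 with obese. The part of these shifts in the results below was not tested, and in bulk RNA fewer cells with a transcript and less of it per cell cannot be told apart.

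For 9 of the 10 mouse genes RefSeq (GRCm38.p6) gives the sequence around the gene's start. Windows of 250 bases before and 50 after it were searched on both strands for 6 short motifs. Those of 4 genes are shown, chosen after their values were seen: Acsl3 and Pla2g6 changed the same way in both mouse lines, and Acsl4 and Lpcat3 changed in opposite ways. The runs are the 250 bases upstream, 5′ to 3′ on the gene's strand, with the CCAAT box, in either orientation, in capitals. They lie at chr1:78657575-78657824 (plus strand, Acsl3), chr15:79328372-79328621 (minus, Pla2g6), chrX:142390536-142390785 (minus, Acsl4) and chr6:124662854-124663103 (plus, Lpcat3).
Acsl3: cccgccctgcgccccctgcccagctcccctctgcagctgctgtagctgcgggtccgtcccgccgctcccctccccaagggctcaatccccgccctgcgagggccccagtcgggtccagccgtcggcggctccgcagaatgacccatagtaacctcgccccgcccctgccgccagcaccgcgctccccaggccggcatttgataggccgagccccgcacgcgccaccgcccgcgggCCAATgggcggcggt
Pla2g6: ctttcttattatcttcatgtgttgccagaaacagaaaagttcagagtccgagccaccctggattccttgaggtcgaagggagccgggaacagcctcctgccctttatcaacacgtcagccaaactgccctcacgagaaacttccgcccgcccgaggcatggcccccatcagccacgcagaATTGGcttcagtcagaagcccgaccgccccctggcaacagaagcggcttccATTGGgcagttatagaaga
Acsl4: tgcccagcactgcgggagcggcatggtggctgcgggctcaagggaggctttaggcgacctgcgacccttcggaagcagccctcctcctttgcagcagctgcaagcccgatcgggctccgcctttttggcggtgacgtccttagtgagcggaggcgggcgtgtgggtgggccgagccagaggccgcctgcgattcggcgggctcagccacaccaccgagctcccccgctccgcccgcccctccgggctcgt
Lpcat3: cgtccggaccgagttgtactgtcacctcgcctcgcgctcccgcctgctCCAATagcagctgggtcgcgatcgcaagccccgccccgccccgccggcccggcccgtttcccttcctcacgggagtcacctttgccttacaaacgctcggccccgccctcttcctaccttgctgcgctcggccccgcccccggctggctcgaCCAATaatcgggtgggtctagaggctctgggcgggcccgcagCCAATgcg
The CCAAT box, a common site of the factor NF-Y, was in 6 of the 9 windows (Acsl3, Pla2g6, Lpcat3, Mboat1, Mboat2 and Elovl5) against 37.4% of 32851 mouse windows of the same length. Acsl4 had none in its window, and Lpcat3 had a further one past its start. The E-box CACGTG was in 1 window, that of Elovl5, against 7.15% of all. Neither the sterol element TCACNCCAC (1.24% of all windows) nor the antioxidant element TGACNNNGC (12.4%) was found in any of the 9. The LXR element of the DR4 type (0.0152%) and the PPAR element of the DR1 type (0.0396%) were not found either. Only exact copies of these elements were searched, and such copies are rare in all windows. Their absence from 9 windows therefore cannot show that a gene lacks such a site. The motif hits are matches of letters and say nothing of whether a factor was bound.

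Most of these genes changed with the lean secretome in every line, by modest factors, and few with the obese one. Between lean and obese secretome, 7 of the 9 genes tested in E0771 passed an adjusted p of 0.05 (edgeR), 3 higher and 4 lower with lean. Among all 13813 genes tested there, 52.7% passed, 25.8% higher and 26.9% lower, so a high count is the rule in that line. NMuMG had 8 of 10 called, 5 higher and 3 lower, beside 35.0% of all 15014 genes (17.6% higher, 17.4% lower). SkBr3 had 3 of 4 called, all lower, beside 44.1% of 14874 genes (21.1% higher, 23.1% lower). The median absolute log2 fold change over the tested members was 0.23 in E0771 and 0.16 in NMuMG, and over all genes tested it was 0.24 and 0.16. In SkBr3 it was 0.41 over the 4 tested members and 0.19 over all genes.

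**Figure D1:**
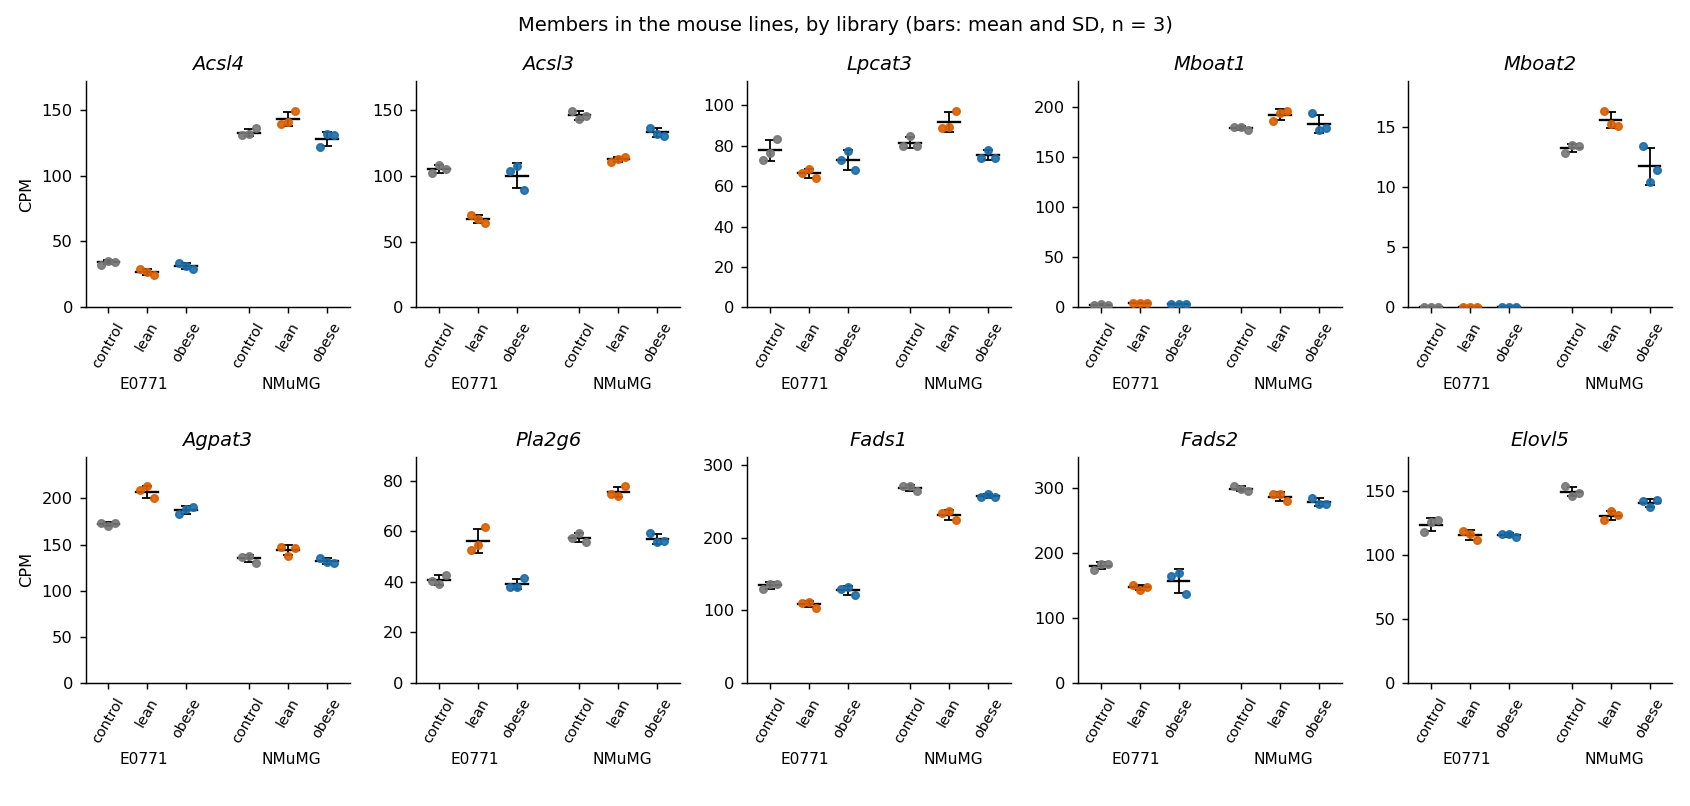
CPM of each of the 10 mouse genes (vertical axis, from 0) in every library of E0771 (left of each panel) and NMuMG (right), by medium; points are libraries, and bars give the mean and SD of 3. Acsl3 was lower in the lean libraries of both lines, Acsl4 and Lpcat3 were lower in E0771 and higher in NMuMG, and Mboat1 and Mboat2 were at or near 0 in E0771.

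Acsl4 joins arachidonic and adrenic acid to coenzyme A and is the synthetase whose loss protects cells from ferroptosis. E0771 held 32.4, 35.5 and 34.2 CPM in control medium, 29.4, 26.7 and 24.2 with lean secretome and 33.8, 31.7 and 29.3 with obese secretome. The 3 lean libraries lay under the 3 control libraries, while the highest lean library overlapped the lowest obese one. The log2 fold change was -0.24 for lean over obese (SE 0.0724, edgeR adjusted p = 0.00718, at most 0.0476 in 14 alternatives) and -0.35 for lean over control (SE 0.0722, adjusted p = 0.000218). NMuMG held more of it: 130.8, 131.6 and 135.9 CPM in control, 139.3, 140.9 and 149.5 with lean and 121.9, 131.4 and 131.2 with obese secretome. There the lean libraries were above all others. The change was 0.16 over obese (SE 0.0385, adjusted p = 0.00121) and 0.11 over control (SE 0.0382, adjusted p = 0.0221). The latter call was lost without control replicate 1 (adjusted p = 0.111) or 2 (0.0607) or lean replicate 3 (0.149).

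Acsl3, which activates mainly monounsaturated and other long chains and sits on lipid droplets, fell in both mouse lines. In E0771 it was at 101.9, 108.2 and 105.6 CPM in control, 70.4, 67.4 and 64.1 with lean and 103.7, 107.9 and 89.4 with obese secretome. The lean libraries were well below the rest, and obese replicate 3 was the lowest of its group. The change was -0.58 over obese (SE 0.0582, adjusted p = 2.83e-08) and -0.65 over control (SE 0.0581, adjusted p = 3.76e-09). The NMuMG libraries gave 149.8, 143.3 and 145.6 CPM in control, 110.5, 112.9 and 114.6 with lean and 136.6, 132.1 and 130.5 with obese secretome. None of the 3 groups overlapped, with lean lowest and obese between. Lean secretome changed the level by -0.24 over obese (SE 0.0366, adjusted p = 2.64e-06) and -0.38 over control (SE 0.0362, adjusted p = 1.90e-10). Acsl3 was the 1 member called between obese secretome and control in NMuMG (-0.14, SE 0.0361, adjusted p = 0.0189), and that call was lost without control replicate 1 (0.143), control replicate 3 (0.0521) or obese replicate 3 (0.111).

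Lpcat3 is the acyltransferase that puts arachidonic and linoleic acid back onto lysophosphatidylcholine, and it is a known target of the sterol receptors LXR. E0771 had 73.1, 76.6 and 83.4 CPM in control, 66.7, 68.3 and 64.0 with lean and 73.1, 77.6 and 67.9 with obese secretome. Lean libraries were below all controls but overlapped obese replicate 3. The change of -0.23 over control passed (SE 0.0558, adjusted p = 0.00124). That of -0.13 over obese passed narrowly (SE 0.0559, adjusted p = 0.0461) and was lost in 8 of 14 alternatives, among them DESeq2 (0.0722) and the fits without control replicate 2 (0.0531), lean replicate 1 (0.0754) or 3 (0.128), or obese replicate 1 (0.0813) or 2 (0.242). NMuMG, by contrast with these decreases, had 80.0, 84.8 and 79.7 CPM in control, 89.0, 89.1 and 97.4 with lean and 74.0, 78.1 and 74.0 with obese secretome. All lean libraries there were above all others. The change was 0.28 over obese (SE 0.0438, adjusted p = 3.11e-06) and 0.17 over control (SE 0.0432, adjusted p = 0.00163), and these held in each of 14 alternatives.

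Mboat1 and Mboat2 encode lysophospholipid acyltransferases that favour monounsaturated chains, and both have been described as suppressors of ferroptosis. Their levels set the mouse lines apart. Mboat1 was at 2.67, 3.33 and 2.23 CPM in E0771 control libraries, 4.68, 4.38 and 4.44 with lean and 3.27, 3.15 and 3.50 with obese secretome. The lean libraries were above all the others, by 0.44 on the log2 scale over obese (SE 0.154, adjusted p = 0.0185) and 0.70 over control (SE 0.159, adjusted p = 0.000536). Without lean replicate 1 or obese replicate 2 the first of these was lost (0.0541 and 0.0622). In NMuMG Mboat1 was at 180.0, 180.1 and 176.4 CPM in control, 186.1, 193.9 and 196.1 with lean and 193.3, 176.3 and 178.2 with obese secretome. Here 1 obese library lay among the lean ones, and the lean over obese change of 0.07 did not pass (SE 0.0366, adjusted p = 0.124); without obese replicate 1 it was 0.12 and passed (0.0165). The change of 0.10 over control did (SE 0.0364, adjusted p = 0.0243), but not without control replicate 1 (0.0636), control replicate 3 (0.0832), lean replicate 2 (0.0800) or lean replicate 3 (0.0866).

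Mboat2 had 0 reads in the 3 E0771 control libraries together, 1 read over the lean libraries and 1 over the obese ones, and it was not tested there. A floor of 3 counts over the group allows up to 0.0389 CPM in control. In NMuMG the libraries held 12.9, 13.5 and 13.4 CPM in control, 16.3, 15.2 and 15.1 with lean and 13.4, 10.4 and 11.4 with obese secretome. All lean libraries exceeded all others. The log2 fold change was 0.41 over obese (SE 0.0857, adjusted p = 0.000247) and 0.23 over control (SE 0.0828, adjusted p = 0.0245), the second lost without control replicate 1 (0.0972) or lean replicate 1 (0.113).

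Agpat3 acylates lysophosphatidic acid and other lysophospholipids with polyunsaturated chains. It was higher with lean than with obese secretome in both lines, by small amounts. The E0771 libraries held 173.2, 170.0 and 173.7 CPM in control, 208.7, 213.1 and 200.4 with lean and 182.7, 188.8 and 190.4 with obese secretome. The groups lay in the order control, obese, lean without overlap, with 0.15 between lean and obese (SE 0.0382, adjusted p = 0.00223) and 0.27 between lean and control (SE 0.0383, adjusted p = 1.94e-06). NMuMG gave 136.8, 137.7 and 130.5 CPM in control, 147.3, 137.7 and 146.4 with lean and 135.7, 131.1 and 130.2 with obese secretome. The lean libraries lay above the others, the lowest of them by very little. The change over obese was 0.12 (SE 0.0375, adjusted p = 0.0110, and 0.0608 without lean replicate 1). Over control it was 0.09 and missed the threshold (SE 0.0372, adjusted p = 0.0501), which it passed in 6 of 14 alternatives.

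Pla2g6 encodes the calcium-independent phospholipase A2 that removes acyl chains, oxidised ones among them, from phospholipids. It rose with lean secretome in both lines and by similar factors. E0771 was at 40.3, 39.1 and 42.9 CPM in control, 52.4, 54.7 and 61.7 with lean and 37.8, 38.1 and 41.3 with obese secretome. NMuMG was at 57.3, 59.3 and 55.9 CPM in control, 74.7, 73.9 and 77.8 with lean and 59.3, 55.6 and 56.0 with obese secretome. Lean libraries stood apart from all others in each line, while obese and control libraries overlapped. The lean over obese change was 0.53 in E0771 (SE 0.0624, adjusted p = 1.51e-07), a 1.44-fold rise, and 0.41 in NMuMG (SE 0.0447, adjusted p = 5.82e-09), a 1.32-fold rise. Over control it was 0.47 (SE 0.0624, adjusted p = 6.82e-07) and 0.39 (SE 0.0442, adjusted p = 6.31e-09).

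Fads1, the delta-5 desaturase that makes arachidonic acid, was lower with lean secretome in both lines. The E0771 libraries were at 129.4, 137.0 and 137.1 CPM in control, 110.8, 111.7 and 103.7 with lean and 129.2, 132.7 and 121.2 with obese secretome. Those of NMuMG were at 271.3, 271.3 and 264.4 CPM in control, 233.8, 237.3 and 224.3 with lean and 256.3, 261.1 and 256.4 with obese secretome. No lean library reached a library of another group in either line. The change over obese was -0.23 in E0771 (SE 0.0456, adjusted p = 0.000143) and -0.15 in NMuMG (SE 0.0332, adjusted p = 0.000359). Over control it was -0.31 (SE 0.0456, adjusted p = 3.40e-06) and -0.21 (SE 0.0330, adjusted p = 2.38e-06).

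Fads2, the delta-6 desaturase that opens the pathway, differed less between the secretomes. In E0771 it was at 174.2, 183.1 and 183.9 CPM in control, 151.0, 143.9 and 147.6 with lean and 164.3, 170.2 and 136.4 with obese secretome. Obese replicate 3 lay below every lean library and the other 2 above them. The lean over obese change of -0.09 did not pass (SE 0.0630, adjusted p = 0.255); without obese replicate 3 it was -0.18 and passed (0.00239). The fall of 0.29 against control passed (SE 0.0628, adjusted p = 0.000996). In NMuMG the libraries held 303.1, 299.0 and 296.1 CPM in control, 291.1, 290.9 and 279.6 with lean and 285.6, 275.8 and 275.1 with obese secretome. Controls were the highest 3 libraries, but neither the lean over control change of -0.06 (SE 0.0326, adjusted p = 0.150) nor the obese over control change of -0.10 (SE 0.0327, adjusted p = 0.0605) passed. The latter passed under DESeq2 (0.0482) and without lean replicate 3 (0.0425).

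Elovl5 lengthens the products of FADS2. Control libraries of E0771 held 117.5, 125.2 and 127.2 CPM, lean libraries 118.8, 116.2 and 111.3, and obese libraries 116.3, 116.2 and 113.6. Lean and obese libraries overlapped fully, at a change of 0.00 (SE 0.0435, adjusted p = 0.987), and lean over control was -0.09 (SE 0.0434, adjusted p = 0.0670), a value that passed without control replicate 1 (0.0228). NMuMG had 153.5, 146.2 and 148.2 CPM in control, 126.9, 134.3 and 130.7 with lean and 141.6, 137.3 and 142.6 with obese secretome. The groups did not overlap and ran from control through obese to lean. The change was -0.11 over obese (SE 0.0365, adjusted p = 0.0225) and -0.19 over control (SE 0.0362, adjusted p = 4.98e-05). The former was lost without lean replicate 1 (0.122), obese replicate 1 (0.0643) or obese replicate 3 (0.106).

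Against control medium the lean secretome changed 8 of the 9 tested genes in E0771, 3 higher and 5 lower, beside 56.3% of all genes there (27.3% higher, 29.0% lower). NMuMG had 8 of 10, 5 higher and 3 lower, beside 38.2% (19.1% higher and 19.1% lower). The obese secretome changed 0 of 9 in E0771 in edgeR, beside 2.61% of all genes. There 3 of the 9 had an unadjusted p under 0.05 (Agpat3, Fads2 and Elovl5), as did 2130 of all 13813 genes. DESeq2 called 1, Fads2 (0.0480). Fads2 there was -0.20 below control (SE 0.0629, adjusted p = 0.117) and also passed without the filter on low counts (0.0015) and without obese replicate 2 (0.0290). Agpat3 was 0.12 above control (SE 0.0385, adjusted p = 0.101) and passed without lean replicate 3 (0.0372). In NMuMG 1 of 10 was called, Acsl3, beside 5.01% of all genes. An unadjusted p under 0.05 was found for 5 of the 10, and for 2489 of all 15014 genes. The lean comparisons with control and with obese share their lean libraries, so they are not separate evidence.

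**Figure D2:**
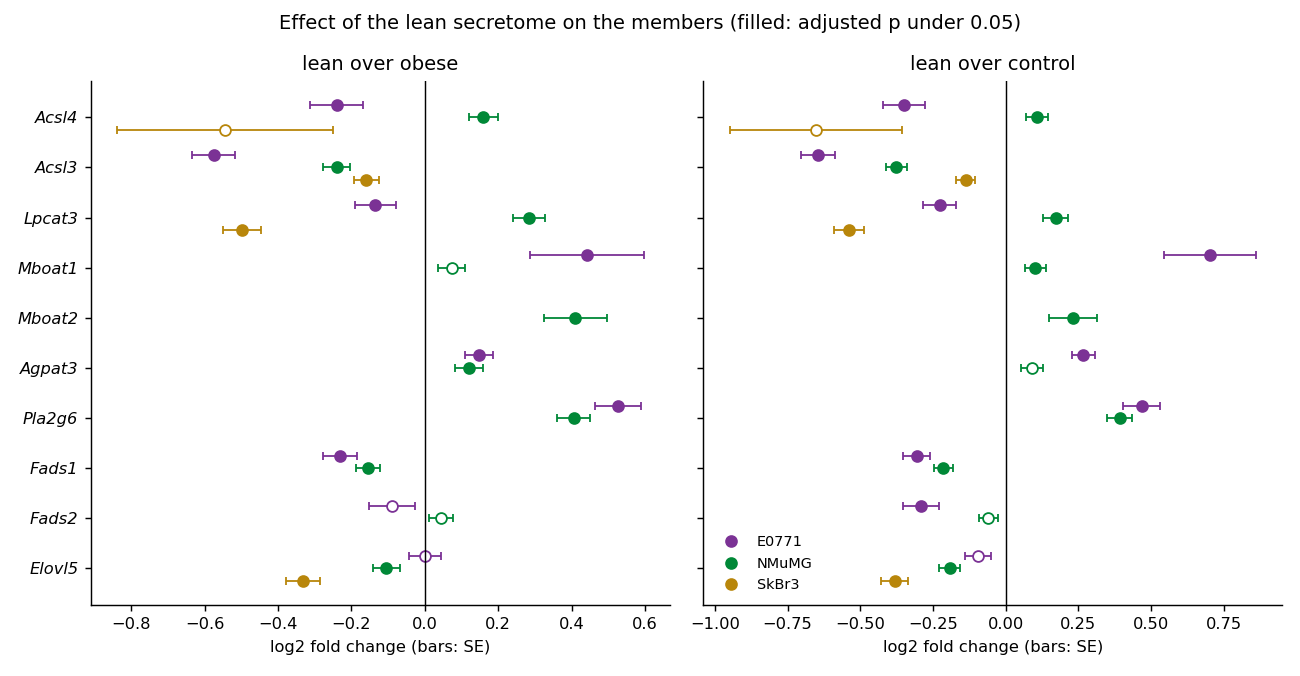
Log2 fold change with its SE (horizontal axis) of each gene for lean over obese secretome (left) and lean over control medium (right) in E0771, NMuMG and SkBr3; filled points had an adjusted p under 0.05. Acsl3 lies left of 0 in all 3 lines, Pla2g6 lies right of it in both mouse lines, and Acsl4 and Lpcat3 lie on opposite sides in E0771 and NMuMG.

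Whether the lean effect itself differed between E0771 and NMuMG was tested as an interaction over the 18 mouse libraries. Mboat2 was left out of it because E0771 had almost no reads. For lean over obese, 4 of 9 genes differed between the lines, beside 34.2% of all 16529 genes. For Acsl4 the effect was 0.38 higher in NMuMG on the log2 scale (SE 0.0781, adjusted p = 0.000124), since it fell in E0771 and rose in NMuMG. For Lpcat3 the difference was 0.40 (SE 0.0723, adjusted p = 1.95e-05), again with opposite signs in the lines. Acsl3 fell in both but by less in NMuMG (0.32, SE 0.0676, adjusted p = 0.000207). Mboat1 rose in E0771 and its effect in NMuMG was smaller by 0.38 (difference -0.38, SE 0.118, adjusted p = 0.00936). These 4 calls held in each alternative run. The differences of Pla2g6 (-0.14, SE 0.0779, adjusted p = 0.187), Fads1 (0.06, SE 0.0553, 0.449), Agpat3 (-0.04, SE 0.0534, 0.612) and Elovl5 (-0.12, SE 0.0563, 0.0915) did not pass; the last passed without E0771 lean replicate 3 (0.0359). That of Fads2 was 0.12 (SE 0.0691, adjusted p = 0.218) and passed without E0771 obese replicate 3 (0.00374).

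For lean over control, 6 of 9 differed, beside 34.5% of all genes. The differences, NMuMG less E0771, were 0.43 for Acsl4 (SE 0.0776, adjusted p = 2.06e-05), 0.37 for Lpcat3 (SE 0.0718, 5.55e-05), 0.24 for Acsl3 (SE 0.0673, 0.00371) and -0.62 for Mboat1 (SE 0.124, 8.50e-05). Agpat3 differed by -0.20 (SE 0.0534, adjusted p = 0.00241), its change being larger in E0771. Fads2 differed by 0.20 (SE 0.0688, adjusted p = 0.0199), a call lost without E0771 control replicate 2 (0.0544) or 3 (0.0564) or lean replicate 2 (0.0583). Elovl5 (-0.12, SE 0.0560, adjusted p = 0.0844) passed without E0771 control replicate 3 (0.0488) or lean replicate 3 (0.0357). For obese over control 0 of 9 differed in edgeR and in DESeq2, beside 1.69% of all genes, with 1 at an unadjusted p under 0.05 (Agpat3). Effects of the same line against obese and against control share the lean libraries.

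**Figure D3:**
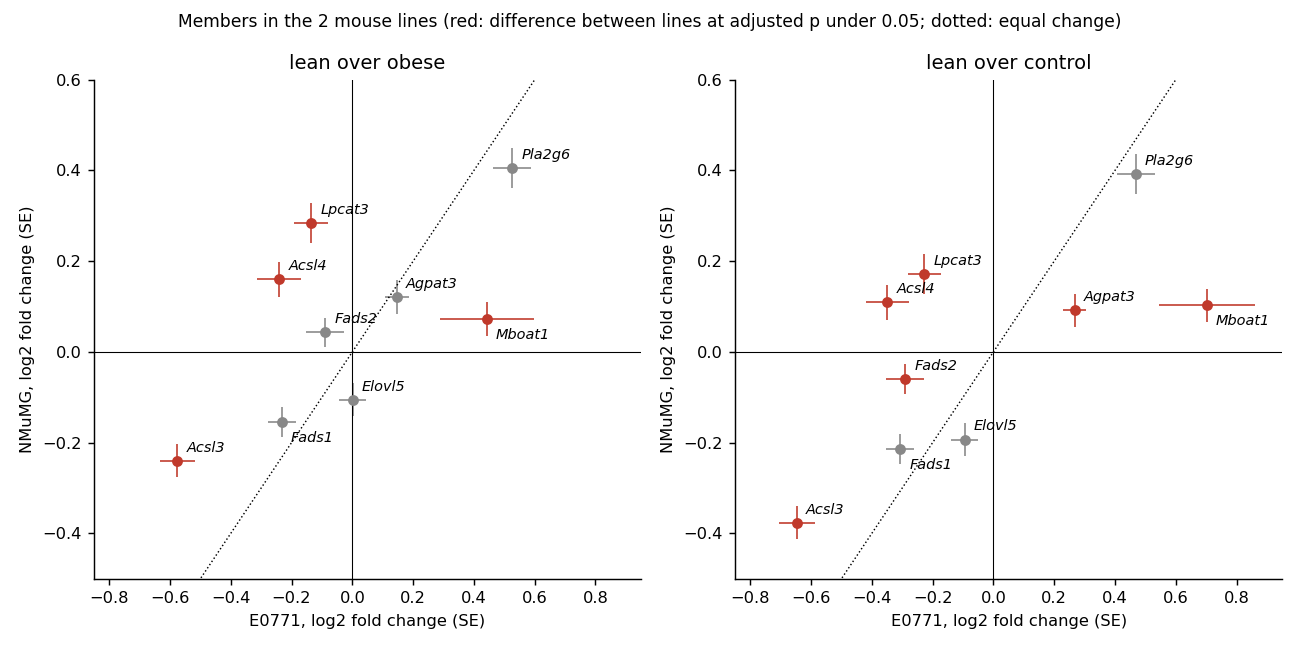
Log2 fold change in E0771 (horizontal axis) against that in NMuMG (vertical axis), with SE bars, for lean over obese (left) and lean over control (right); red points are genes whose effect differed between the lines at an adjusted p under 0.05, and the dotted line marks equal change. Acsl4 and Lpcat3 lie in the upper left in both panels, and Pla2g6 and Fads1 lie near the dotted line.

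In control medium all 10 genes differed in level between the mouse lines (edgeR), as did 80.5% of all genes. Mboat1 was 70.2-fold higher in NMuMG (adjusted p = 2.61e-44), and Mboat2 was at least 340.9-fold higher against the floor of 3 counts over the E0771 group. Acsl4 was 4.24-fold higher in NMuMG (log2 difference 2.09, SE 0.0545, adjusted p = 6.42e-31). The 2 desaturases were also higher there, Fads1 2.18-fold and Fads2 1.81-fold (log2 difference 1.12, SE 0.0391, and 0.85, SE 0.0488). Smaller excesses in NMuMG were 0.62 for Pla2g6, 0.60 for Acsl3, 0.40 for Elovl5 and 0.19 for Lpcat3 on the log2 scale. Agpat3 went the other way, by -0.23.

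Levels of different genes were compared as CPM per kb of exon. In E0771 control medium Fads2 was the highest, at 54.8 ± 1.64 CPM per kb (SD, n = 3), followed by Elovl5 at 35.0 ± 1.45, Fads1 at 28.0 ± 0.923, Acsl3 at 24.2 ± 0.720, Lpcat3 at 23.8 ± 1.61 and Agpat3 at 22.1 ± 0.262. Acsl3 and Lpcat3 overlapped and had no order. Pla2g6 (7.50 ± 0.356), Acsl4 (6.30 ± 0.285) and Mboat1 (0.750 ± 0.151) came last, above Mboat2 at 0. NMuMG in control medium had Fads2 at 90.9 ± 1.08 CPM per kb, Fads1 at 55.9 ± 0.834, Mboat1 at 48.9 ± 0.569, Elovl5 at 42.4 ± 1.06 and Acsl3 at 33.6 ± 0.756. Lpcat3 (24.9 ± 0.874) and Acsl4 (24.6 ± 0.500) overlapped, and Agpat3 (17.3 ± 0.505), Pla2g6 (10.6 ± 0.313) and Mboat2 (1.39 ± 0.0365) followed. Mboat1 thus held the third place in NMuMG and the ninth in E0771. With lean secretome in E0771, Acsl3 was at 15.4 ± 0.727 CPM per kb, below Lpcat3 at 20.3 ± 0.671 without overlap, and Agpat3 at 26.6 ± 0.832 was above Fads1 at 22.6 ± 0.911.

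SkBr3 showed lower levels of 3 of the 4 tested genes with lean secretome than with either other medium. LPCAT3 was at 122.0, 119.3, 128.5 and 124.8 CPM in control, 86.6, 76.3, 94.3 and 83.5 with lean and 119.8, 126.3, 123.0 and 111.4 with obese secretome. Its lean libraries were all below the rest, by -0.50 over obese (SE 0.0521, adjusted p = 7.18e-07) and -0.54 over control (SE 0.0524, adjusted p = 6.96e-08). ELOVL5 was at 103.6, 98.7, 99.05 and 102.3 CPM in control, 79.1, 70.4, 84.3 and 76.3 with lean and 96.4, 96.7, 95.9 and 100.9 with obese secretome. These lean libraries too were below all others, with a change of -0.33 over obese (SE 0.0456, adjusted p = 7.31e-06) and -0.38 over control (SE 0.0459, adjusted p = 6.31e-07). ACSL3 had 262.5, 259.7, 250.1 and 254.4 CPM in control, 239.0, 234.2, 227.2 and 232.8 with lean and 255.8, 262.0, 269.8 and 254.9 with obese secretome. The lean libraries lay below all others, while control and obese libraries overlapped, and the fall was small, -0.16 over obese (SE 0.0337, adjusted p = 0.000582) and -0.14 over control (SE 0.0338, adjusted p = 0.00175).

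ACSL4 was scarce in SkBr3, at 0.606, 1.24, 0.822 and 1.14 CPM in control, 0.423, 0.810, 0.722 and 0.506 with lean and 0.994, 0.762, 0.706 and 1.10 with obese secretome. The groups overlapped, and the change of -0.54 over obese (SE 0.294, adjusted p = 0.139) and -0.65 over control (SE 0.296, adjusted p = 0.0729) did not pass; the latter passed without control replicate 1 (0.0314) or lean replicate 2 (0.0480). FADS1 had 1 to 4 reads per control library, 3 to 13 with lean and 2 to 9 with obese secretome, and FADS2 had 0 to 3, 0 to 5 and 0 to 3. Summed over the libraries of a medium, FADS1 had 9 reads in control, 28 with lean and 22 with obese secretome, and FADS2 had 9, 11 and 7. The libraries of the 3 media overlapped for both genes, and neither was tested. Against control, 3 of the 4 tested genes passed, beside 48.8% of all genes (23.7% higher, 25.1% lower). The obese secretome changed 0 of 4 in edgeR, beside 1.16%, with 0 at an unadjusted p under 0.05 and 0 by DESeq2. Of all 14874 genes, 2039 had an unadjusted p under 0.05. The species were not compared in 1 fit, so a difference between SkBr3 and the mouse lines was not tested.

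**Figure D4:**
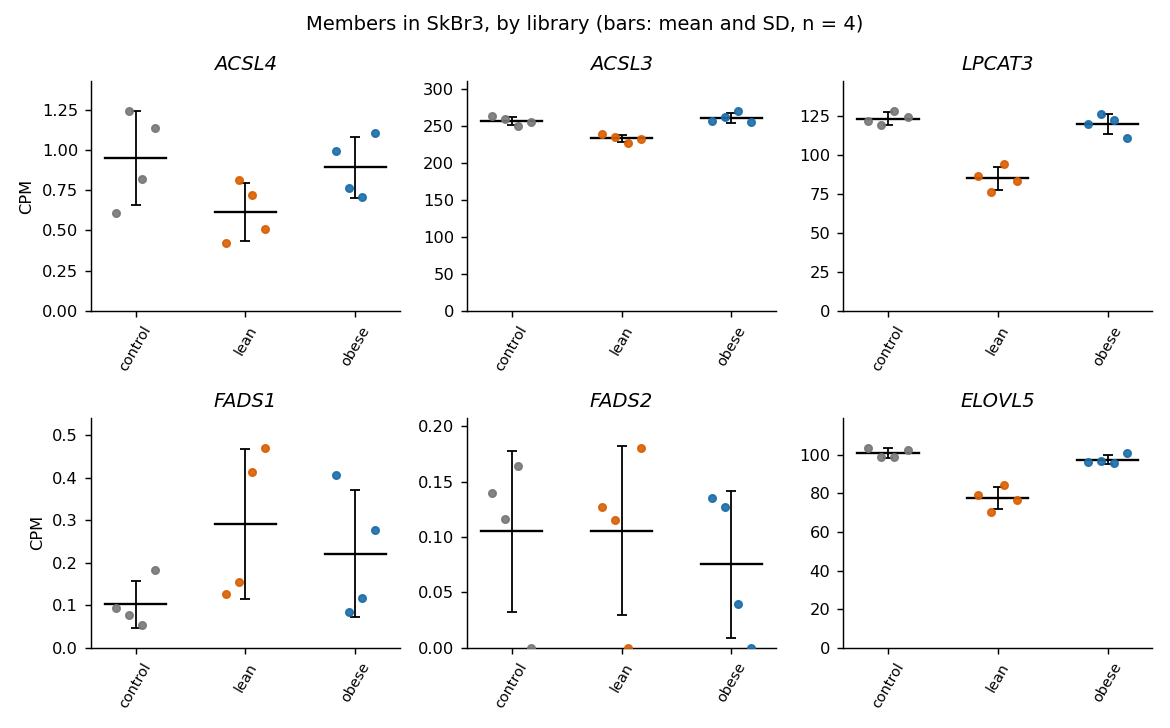
CPM of the 6 human genes in each SkBr3 library (vertical axes from 0, each with its own range) by medium, with the mean and SD of 4. ACSL3, LPCAT3 and ELOVL5 lie lower with lean secretome, while ACSL4 is near 1 CPM and FADS1 and FADS2 are below 0.5 CPM in all libraries.

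The surrounding pathway was read from 7 lists with 63 mouse genes, of which 52 were tested in each line. Between lean and obese secretome 36 of the 52 were called in E0771, 22 higher and 14 lower, and 22 in NMuMG, 15 higher and 7 lower, to be set beside the 52.7% and 35.0% of all genes. The median log2 fold change over all genes was 0.0035 in E0771 and -0.0023 in NMuMG, against which the medians of the lists below can be read. Among the other acyl-CoA synthetases, 3 of 3 were called in E0771, 2 higher and 1 lower. Acsl1 was at 0.75 (SE 0.0622, adjusted p = 4.79e-10) and Acsl6 at 0.55 (SE 0.0883, adjusted p = 1.25e-05). Acsl5 was the lower one, at a mean of 154.1 CPM with lean and 189.7 with obese secretome. Acsl1, a synthetase of broad range, had 64.9, 63.3 and 65.4 CPM with lean and 39.8, 36.4 and 38.5 with obese secretome, with no overlap. Its effect differed between the lines (-0.67, SE 0.0945, adjusted p = 2.86e-07), as it was 0.10 in NMuMG (adjusted p = 0.260). In NMuMG 1 of 2 was called, Acsl5, at -0.12 (SE 0.0341, adjusted p = 0.00468). The fall of Acsl5 was larger in E0771 (difference 0.16, SE 0.0572, edgeR adjusted p = 0.0245).

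Of 12 other acyltransferases tested, 10 were called in E0771 (7 higher, 3 lower, median log2 fold change 0.18) and 7 in NMuMG (5 higher, 2 lower, median 0.07). Agpat5 and Gpat3, which acylate lysophosphatidic acid and glycerol-3-phosphate, led in E0771, at 0.84 (SE 0.0584, adjusted p = 3.50e-11) and 0.74 (SE 0.109, adjusted p = 3.03e-06). Gpat3 (0.60, SE 0.144, adjusted p = 0.00120) and Agpat4 (0.44, SE 0.0667, adjusted p = 2.41e-06) led in NMuMG. Among 13 genes of elongation and desaturation, 9 were called in E0771 (5 higher, 4 lower) and 6 in NMuMG (3 and 3), with medians of 0.04 and 0.01. Elovl3, an elongase of saturated chains, was 1.55 higher in E0771 (SE 0.194, adjusted p = 3.33e-07) from a low level of 1.49 CPM with obese secretome, and the dehydratase Hacd1 was 0.76 higher (SE 0.0809, adjusted p = 2.65e-08). In NMuMG Elovl6 fell by 0.42 (SE 0.0488, adjusted p = 1.89e-08) and the stearoyl-CoA desaturase Scd1 by 0.23 (SE 0.0527, adjusted p = 0.000694). The fall of Scd1 was not particular to NMuMG and was larger in E0771 (difference 0.47, SE 0.130, edgeR adjusted p = 0.0110). That of Elovl6 was larger in NMuMG (difference -0.23, SE 0.0741, edgeR adjusted p = 0.0125).

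Of the other phospholipases, Pla2g4a rose in both lines. Pla2g4a, the cytosolic phospholipase A2 that frees arachidonic acid, was at 21.7, 21.5 and 22.1 CPM with lean and 13.7, 10.9 and 10.7 with obese secretome in E0771 (0.89, SE 0.102, adjusted p = 1.70e-07). In NMuMG it was at 145.6, 157.5 and 154.4 CPM with lean and 122.7, 98.3 and 103.4 with obese secretome (0.50, SE 0.0671, adjusted p = 0.000130). The rise differed between the lines (-0.41, SE 0.137, adjusted p = 0.0282). The mitochondrial and peroxisomal Pnpla8 fell by 0.44 in E0771 (SE 0.0576, adjusted p = 5.95e-07), and Lypla2, a lysophospholipase and thioesterase, rose by 0.23 in NMuMG (SE 0.0501, adjusted p = 0.000410). In all, 5 of 9 were called in E0771 (4 higher, 1 lower, median 0.18) and 3 of 9 in NMuMG, each higher (median 0.04).

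Ether phospholipids, another store of polyunsaturated chains, start with Gnpat and Far1 and become plasmalogens through Tmem189. Of 7 such genes tested, 3 were called in E0771 (2 higher, 1 lower, median 0.08) and 1 in NMuMG, lower (median -0.03). Gnpat was -0.19 in E0771 (SE 0.0484, adjusted p = 0.00208), Tmem189 was 0.18 there (SE 0.0580, adjusted p = 0.0131), and Far1 was -0.11 in NMuMG (SE 0.0430, adjusted p = 0.0376), where its libraries overlapped. Of the genes of lipid oxygenation, 4 of 8 were tested in E0771 and 3 in NMuMG. Alox5, Alox12, Alox15 and Alox12b, lipoxygenases, were too low to be tested in either line. Por, the cytochrome P450 reductase that feeds electrons into lipid peroxidation, was higher with lean secretome in both, by 0.52 in E0771 (SE 0.0457, adjusted p = 1.28e-09) and 0.34 in NMuMG (SE 0.0392, adjusted p = 1.64e-08). The difference between the lines passed (-0.20, SE 0.0632, adjusted p = 0.0101). Aloxe3 rose by 1.61 in E0771 (SE 0.326, adjusted p = 0.000184) but only to 1.09 CPM, and Cyb5r1, another reductase, by 0.14 in NMuMG (SE 0.0466, adjusted p = 0.0172).

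Of the regulators of lipid synthesis, Srebf1 and Nr1h3 responded differently in the mouse lines. Srebf1 encodes SREBP1, which drives fatty acid synthesis and desaturation. In E0771 it was at 324.4, 319.8 and 320.4 CPM in control, 131.7, 131.2 and 129.1 with lean and 268.0, 306.2 and 244.0 with obese secretome. It fell by 1.06 against obese (SE 0.0599, adjusted p = 6.92e-10), to less than the lowest library of any other group. NMuMG was at 160.1, 155.7 and 157.2 CPM with lean and 152.4, 154.2 and 147.7 with obese secretome, a change of 0.06 that did not pass (SE 0.0358, adjusted p = 0.215). The effects differed between the lines by 1.10 (SE 0.0679, adjusted p = 2.73e-14). Nr1h3 encodes LXR alpha, a sterol receptor known to act on Lpcat3. It held 31.5, 32.8 and 30.3 CPM with lean and 46.5, 50.2 and 46.6 with obese secretome in E0771, a fall of 0.60 (SE 0.0568, adjusted p = 4.42e-09). NMuMG held 19.8, 19.2 and 20.3 CPM with lean and 16.4, 14.0 and 12.5 with obese secretome, a rise of 0.47 (SE 0.0810, adjusted p = 1.61e-05). The difference between the lines was 1.06 (SE 0.0985, adjusted p = 3.25e-11). Whether it bears on Lpcat3 was not tested. Nr1h2, the LXR beta gene, rose by 0.17 in NMuMG (SE 0.0432, adjusted p = 0.00162). Of the regulators tested, 4 of 4 were lower with lean secretome in E0771 (median -0.44), and 2 of 6 were higher in NMuMG (median 0.12).

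**Figure D5:**
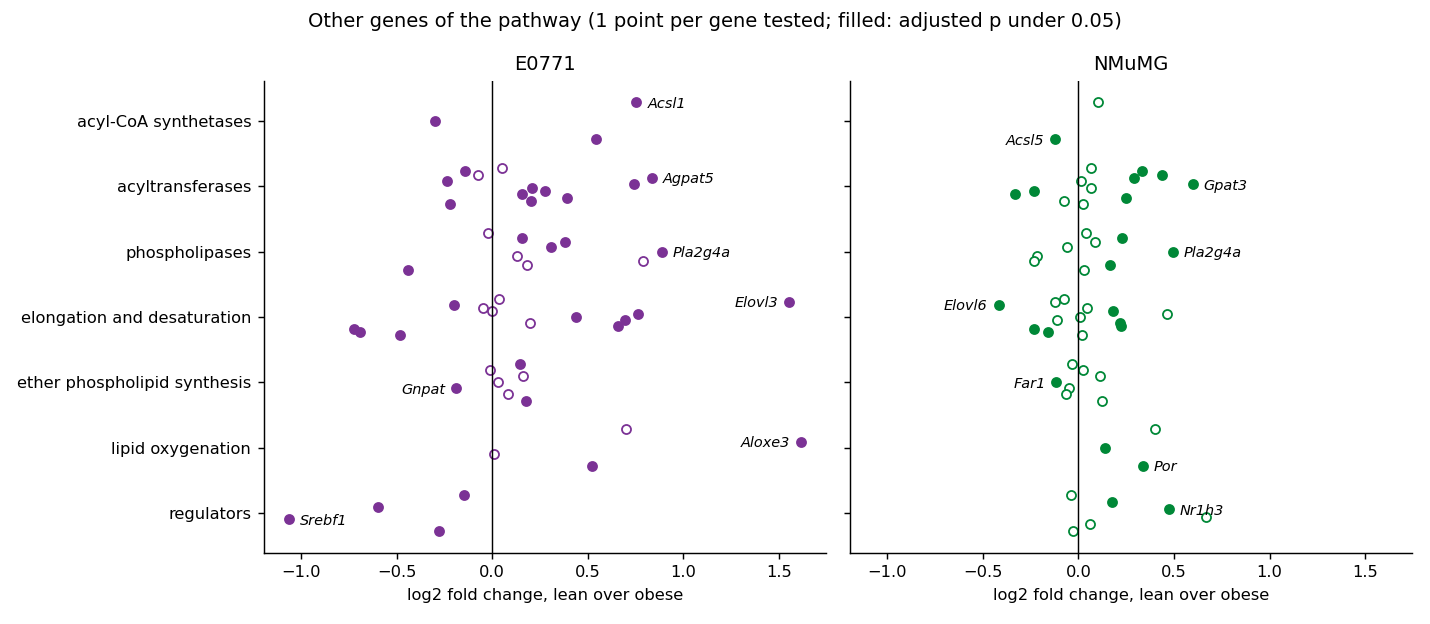
Log2 fold change of lean over obese secretome (horizontal axis) for each tested gene of the 7 lists in E0771 (left) and NMuMG (right); filled points had an adjusted p under 0.05, and the named gene has the largest change called in its list. Srebf1 lies near -1.06 in E0771, and Nr1h3 lies left of 0 in E0771 and right of it in NMuMG.

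The genes whose pattern over the 9 libraries of a line was most like Acsl4 or Fads2 were found by Pearson's r of log2 CPM, over 9938 genes in E0771 and 10669 in NMuMG. For Acsl4 in E0771 they were Fancl (r = 0.972), Hmgcs1 (0.971) and Xiap (0.967), and in NMuMG Fuca2 (0.983), Trp53inp1 (0.964) and Fam214a (0.962). For Fads2 they included Lss (0.968) and Btbd8 (0.957) in E0771, and were Ap5s1 (0.950), Atxn7l1 (0.945) and Zfp516 (0.931) in NMuMG. Hmgcs1 and Lss encode enzymes of sterol synthesis. The points share their 3 groups, and r is a description of 9 libraries.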

How the data were processed

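Poly(A) RNA from SkBr3, E0771 and NMuMG cells in 3 media was prepared with a directional kit, per the labels' protocols. Per the submitters' processing notes, the authors used cutadapt 1.16, STAR 2.7.9a and featureCounts 1.6.3 and the build GRCm39. They deposited whole-number read counts per Ensembl gene, not normalized, in a mouse table and a human table. GRCm39 is listed for the human samples too; the human build, the annotation release and the strand setting are not given in the sources used here, so overlapping and antisense genes may share reads. Counts are of reads without molecular identifiers, and intervals and floors cover counting error only.

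The members, the gene lists and the tests were chosen with earlier results of these data known. The genes named were the members and, of each list and mouse line, up to 2 called genes with the largest absolute log2 fold change of lean over obese; the 3 genes most like Acsl4 or Fads2 were taken among those of mean log2 CPM of at least 2 (prior count 2). Of these genes, 1 is not reported here. Mouse symbols came from GENCODE M21 (GRCm38), used for names and exon lengths only; a symbol was found for 52073 of 56980 IDs (99.7% of the counts). Each line was fitted alone with its 3 media in edgeR 4.0.16 (R 4.3.3): filterByExpr, TMM factors (0.987 to 1.02), a robust quasi-likelihood fit and Benjamini-Hochberg adjustment over all genes tested, called at an adjusted p under 0.05. CPM used the TMM-corrected library totals. The standard error is the log2 fold change divided by the root of F. Differences between mouse lines came from 1 fit of 18 libraries (16529 genes). The test was tried on simulated data. Replicates of a group differed by more than counting error (chi-square per degree of freedom 1.99 to 15.2). Alternatives were DESeq2 1.42.0, its size factors, no filter on low counts, fits of only the groups compared, a replicate block and leaving out each library. Between lean and obese, standard errors had a median of 0.0720 in E0771, 0.0708 in NMuMG and 0.0759 in SkBr3.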

Additional observations from a re-analysis of the deposited data

Results flagged for a closer look

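The highest SkBr3 library of ELOVL5 with obese secretome, at 100.9 CPM, stood apart from the other 3, with a gap of 0.831 of the group's range. Of 18 groups of 4 libraries looked at, it was the only one past the limit of Dixon's test, and chance marks about 1 in 20.

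The effect of the lean secretome differed between the mouse lines in 4 of 9 genes over obese secretome and in 6 of 9 over control medium (interaction test, edgeR), beside 34.2% and 34.5% of all genes tested. For obese secretome over control it was 0 of 9 in edgeR and in DESeq2, with 1 at an unadjusted p under 0.05. The differences below are those of NMuMG less E0771 on the log2 scale. Over obese secretome they were 0.38 for Acsl4, 0.40 for Lpcat3, 0.32 for Acsl3 and -0.38 for Mboat1. Over control medium they were 0.43 for Acsl4, 0.37 for Lpcat3, 0.24 for Acsl3, -0.62 for Mboat1, -0.20 for Agpat3 and 0.20 for Fads2. In Acsl4 and Lpcat3 the effect had opposite signs in the lines, and each sign passed the test in its own line. The call of Lpcat3 in E0771 over obese secretome was lost in 8 of 14 alternatives. That of Acsl4 in NMuMG over control was lost in 3 of 14. The lean libraries are shared between the comparisons, and line and growth medium cannot be told apart.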

How the results depend on the processing

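Of the member values under an alternative, 1736 kept their direction and their side of the threshold, 29 lost a call, 21 gained one and 30 changed sign, none of which was a called value. The number of members called was within 1.5 times in most alternatives. It became 1 in place of 0 for E0771 obese against control under DESeq2 and without the filter, and 2 in place of 1 for NMuMG obese against control under DESeq2. Leaving out 1 library gave 0 to 1 and 0 to 2 in these comparisons, and 5 to 9 for NMuMG lean against control, where 8 became 5 without control replicate 1. For lean against obese it gave 5 to 8 in E0771, with 7 in the main fit, and 6 to 8 in NMuMG, with 8 in the main fit. Over all genes, obese against control gave 360 calls in E0771 but 626 without the filter, and 172 in SkBr3 but 384 under DESeq2, 539 without the filter and 849 with only both groups in the fit. Without 1 library these counts ran from 79 to 601 in E0771, 384 to 893 in NMuMG and 20 to 655 in SkBr3; the cause was not tested.

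The changes of sign were in values near 0. For Elovl5 in E0771, lean over obese was -0.00171 without the filter, -0.00143 with only both groups in the fit and -0.021 to 0.028 without 1 library. Leaving out 1 library, obese over control ran from -0.11 to 0.0073 for Acsl3 in E0771, from -0.011 to 0.053 for Mboat1 and -0.042 to 0.0065 for Pla2g6 in NMuMG, and from -0.27 to 0.060 for ACSL4 in SkBr3. The line differences in the same comparison ran from -0.00058 to 0.10 for Acsl4, -0.023 to 0.039 for Elovl5, -0.027 to 0.040 for Fads1, -0.082 to 0.020 for Lpcat3 and -0.0016 to 0.082 for Pla2g6.

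Same-numbered libraries of different media had residual correlations from -0.217 to 0.164 in E0771, -0.0827 to 0.0364 in NMuMG and -0.139 to 0.183 in SkBr3. Over 0.1 lay 1 of 9 such pairs in E0771, 0 of 9 in NMuMG and 3 of 12 in SkBr3. The numbers showed no clear pairing, but so few pairs cannot exclude shared cultures or days. Each library correlated best with its own number in 3 of 9, 0 of 9 and 4 of 12 libraries. With the replicate block, lean against obese gave 6 members in E0771, since Lpcat3 was lost (adjusted p = 0.0551), 8 in NMuMG and 3 in SkBr3, and the block changed no other member call. Low counts limit what can be said of Mboat2 in E0771 and of FADS1, FADS2 and ACSL4 in SkBr3.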
